A study of Homo sapiens with 6 samples.

Results

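The 9 genes described here encode the enzymes that build and break down glycogen, the branched glucose polymer in which cells store sugar. They were taken by symbol from the RNA-seq count files, which list 56638 gene symbols per sample: PGM1, UGP2, GYG1, GYS1, GBE1, PYGB, PYGL, PYGM and PHKB. All 9 had a row in every sample, and all 9 passed the count minimum of 5 counts in total in at least 1 of the conditions, although PYGM did so with only 7 to 22 counts per sample. The samples were HCT116 cells, a human colorectal carcinoma line, at passages 16 to 19. There were 3 samples labelled wild type (WT) and 3 labelled as having METTL3, the catalytic subunit of the m6A RNA methyltransferase, knocked out (METTL3-KO). The submitters' own names for the count tables call these groups NC and SiM3 instead, a difference that the labels do not explain. The labels were followed, and METTL3-KO stands for that label throughout. The study describes its knockout cells as a monoclonal line made by lentiviral CRISPR/Cas9 delivery and puromycin selection, so loss of METTL3 and any trait of that clone cannot be told apart here. Nothing in the labels says that the 3 samples of a group came from separate cultures, so p-values measure the spread between these samples, which may be technical.

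In glycogen synthesis, phosphoglucomutase converts glucose 6-phosphate to glucose 1-phosphate, UGP2 activates it to UDP-glucose, glycogenin (GYG1) primes a new chain on itself, glycogen synthase (GYS1) lengthens the chain and the branching enzyme (GBE1) adds branches. In breakdown, glycogen phosphorylase releases glucose 1-phosphate from the chain ends. It exists as isoenzymes named for brain (PYGB), liver (PYGL) and muscle (PYGM), and phosphorylase kinase, of which PHKB is a regulatory subunit, switches it on by phosphorylating a serine near its start. The released glucose 1-phosphate returns through phosphoglucomutase to glycolysis, the pathway the study asked about in these cells.

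The stretch around that serine is shown for the isoenzymes because it is the site where the kinase and the phosphorylases of this list meet, and because it shows how far the mRNAs differ. The sequences come from the GENCODE transcripts on GRCh37 and cover codons 11 to 20, all in exon 1, with the codon of serine 15 in capitals (the initiator methionine is codon 1). The PYGB stretch lies at chr20:25228845-25228874 on the plus strand, that of PYGL at chr14:51411062-51411091 on the minus strand and that of PYGM at chr11:64527311-64527340 on the minus strand.
PYGB: cggaagcagatcAGCgtgcgcggcctggcg
PYGL: cggcggcagatcAGCatccgcggcatcgtg
PYGM: agaaagcaaatcAGTgtgcgtggcctggcc
The PYGL stretch matched that of PYGB at 23 of 30 bases and the PYGM stretch at 24. Over the aligned coding sequence, PYGB was identical to PYGL at 75.9% and to PYGM at 78.6% of positions, and the longest run of identical bases in the whole transcripts was 33 bases for PYGB and PYGL, 29 for PYGB and PYGM and 35 for PYGL and PYGM. No identical stretch over 35 bases was thus common to any pair of isoenzymes.

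The libraries held 20936091 to 30142144 counts on genes. METTL3 mRNA was at 30.6, 30.2 and 29.2 CPM in the WT libraries and at 7.26, 7.69 and 6.89 CPM in those labelled METTL3-KO, where CPM is the usual depth-scaled count, computed with TMM-adjusted library sizes. The level in the latter was 0.243 times that in WT, so METTL3 mRNA was reduced but still present. For its knockout cells the study reports an inserted fragment that creates a premature stop, and a check by sequencing and Western blot. The counts here measure mRNA and not METTL3 protein. The third library of each group stood apart: the chi-square per gene against the other 2 libraries of its group was 23.1 and 22.99 for WT and 11.2 and 8.32 for METTL3-KO, against 2.58 and 2.34 between the first 2. All 8 epithelial markers were above 1 CPM in every sample, with a summed level of 5884 to 7284 CPM in WT and 8381 to 9347 CPM in METTL3-KO cells. Markers of endothelium (PECAM1 at 0 in every sample), muscle (MYH2 at 0) and liver (ALB at 0) summed to at most 1.18 CPM in any sample. Of the fibroblast markers, COL1A2 and COL3A1 were at 0 and the list summed to 4.92 to 9.86 CPM. The blood and immune list reached 665.7 to 1046 CPM through LYZ (lysozyme) alone, while PTPRC was at no more than 0.0469 CPM. The epithelial and fibroblast sums were higher and LYZ was lower in every METTL3-KO sample. Single epithelial markers differed in this: KRT8, KRT19, CDH1 and VIL1 were higher in every METTL3-KO sample. EPCAM, KRT18, CLDN7 and CDX2 overlapped between the groups. Of the fibroblast markers, COL1A1 and LUM were higher in every METTL3-KO sample. The part of these differences in the results below was not tested.

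Of the 9 glycogen genes, 1 was lower and 2 were higher in METTL3-KO than in WT cells (edgeR's quasi-likelihood test, Benjamini-Hochberg adjusted p under 0.05). PYGB fell to 0.606 times its WT level, UGP2 rose 1.27-fold and GYG1 rose 1.22-fold. The other 6 did not pass. Among all 22452 genes tested, 13.4% were lower and 13.4% higher (26.8% in either direction), so that 3 of 9 members were called says little about the list by itself. The median log2 fold change of the 9 genes was 0.16, beside -0.02 for all genes tested, with 8 of the 9 estimates above 0 and PYGB the exception. The CPM of all METTL3-KO samples lay outside the range of the WT samples for 5 of the 9 genes, which was also the case for 40.9% of all genes tested. PYGB was the gene below the WT range (20.7% of all genes), and UGP2, GYG1, GYS1 and PHKB lay above it (20.2%).

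**Figure D1:**
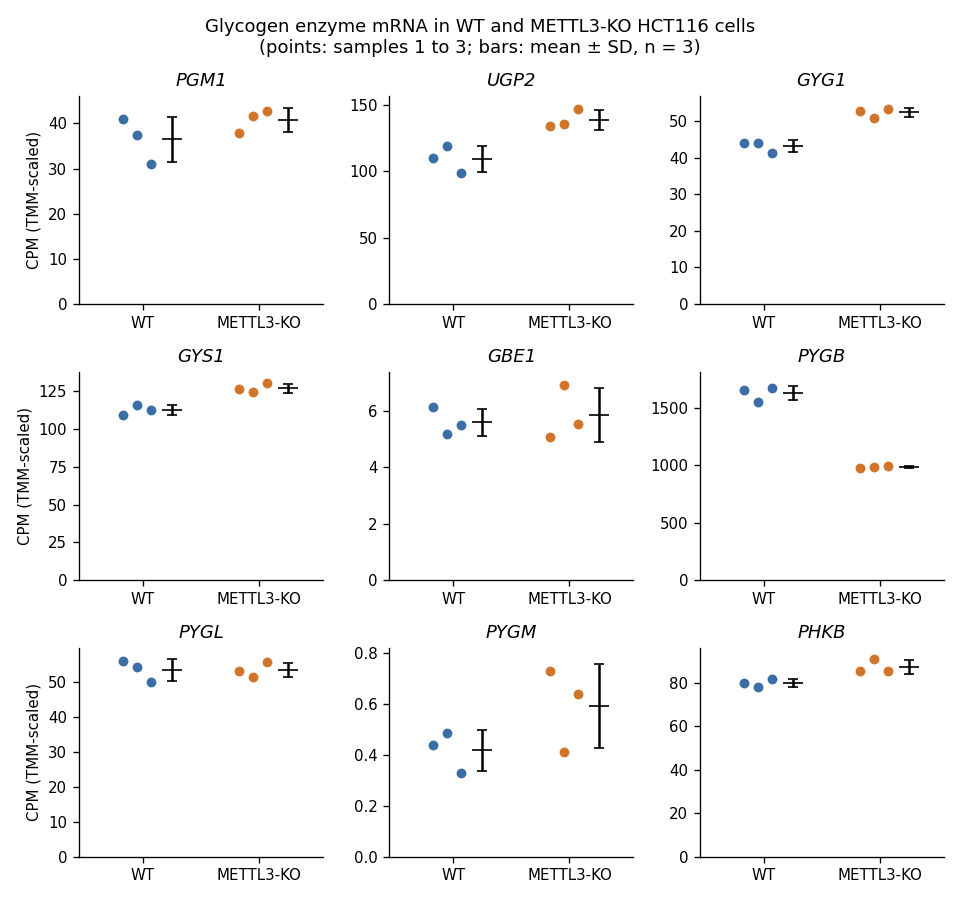
CPM (TMM-scaled, linear axes from 0) of the 9 glycogen genes in each WT (blue) and METTL3-KO (orange) sample, with the mean ± SD of 3 samples beside the points. PYGB drops from 1557 to 1674 CPM in WT to 979.9 to 993.5 CPM in METTL3-KO cells, UGP2 and GYG1 lie higher in every METTL3-KO sample, and PYGL overlaps between the groups.

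The phosphorylase genes carried the largest difference. PYGB (chromosome 20, 25228721 to 25278648 of GRCh37, plus strand, 21 exon blocks) had 45508, 35201 and 35703 counts in WT samples 1 to 3 and 29543, 21710 and 23367 in METTL3-KO samples 1 to 3. As CPM this was 1658, 1557 and 1674 in WT and 979.9, 987.7 and 993.5 in METTL3-KO cells. The groups did not overlap, and the METTL3-KO samples lay close together (987.0 ± 6.81 CPM against 1630 ± 63.2 in WT, n = 3 each, mean ± SD). The log2 fold change was -0.72 (SE 0.0646, 95% confidence interval -0.87 to -0.58, edgeR adjusted p = 1.93e-05), at the 11.5th percentile of the log2 fold changes of all genes tested. PYGB ranked 27th to 37th by count among all genes in the WT samples and 66th to 76th in the METTL3-KO samples, and its share of all gene counts went from 0.154% to 0.171% in WT to 0.0977% to 0.1003% in METTL3-KO cells. The study picked PYGB, with other genes of carbohydrate metabolism, for having lower mRNA in these same samples and less m6A, so its direction here is not independent evidence. In bulk RNA, less PYGB mRNA per cell and fewer cells that carry it cannot be told apart.

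PYGL (chromosome 14, 51324609 to 51411201, minus strand), the liver isoenzyme, did not share the change of PYGB. It was at 56.1, 54.5 and 49.98 CPM in WT and 53.3, 51.5 and 55.8 in METTL3-KO samples. The groups overlapped throughout, and the log2 fold change was 0.00 (SE 0.0763, edgeR adjusted p = 0.995). Its 95% confidence interval, -0.17 to 0.17, lay wholly above that of PYGB. PYGM (chromosome 11, 64513861 to 64527446, minus strand), the muscle isoenzyme, had 12, 11 and 7 counts in WT and 22, 9 and 15 in METTL3-KO samples. The 2 groups overlapped, and at this depth the log2 fold change of 0.52 came with a 95% confidence interval of -0.25 to 1.30 (edgeR adjusted p = 0.309). No change in PYGM was detectable here, in either direction, up to the limits of that interval.

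The isoenzymes were then compared within each sample, where the library size cancels. PYGL counts were 3.38%, 3.50% and 2.99% of the PYGB counts in WT, against 5.44%, 5.22% and 5.61% in METTL3-KO samples. Every METTL3-KO sample lay above every WT sample. On the log2 scale the PYGL to PYGB ratio was -4.93 ± 0.120 in WT against -4.21 ± 0.0529 in METTL3-KO cells (n = 3 each, mean ± SD), a difference of 0.72 or 1.65-fold (p = 0.1 by a two-sided exact permutation test, which cannot go lower with 3 samples against 3). Counted per length of annotated exon, PYGB made up 96.7% to 97.1% of the summed phosphorylase level in WT and 94.7% to 95.1% in METTL3-KO samples. PYGL made up 2.84% to 3.31% and 4.86% to 5.21%, and PYGM no more than 0.0676% in any sample. PYGB remained the predominant phosphorylase mRNA in both genotypes. The summed level per length fell with it, from 361.5 to 386.7 CPM per kilobase of exon in WT to 231.8 to 235.4 in METTL3-KO samples (a description, without a test).

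The study also included PYGB among the candidate genes it measured by real-time PCR. PYGB is not among those it names as lower by PCR in both METTL3-knockout HCT116 and METTL3-knockdown SW480 cells. The study's PYGB primers are shown because the isoenzymes resemble each other at the sites. The forward primer lies in exon 1 at chr20:25229022-25229042 and the reverse primer in exon 2 at chr20:25239945-25239966 (GRCh37), for a product of 130 bases on the PYGB transcript. Capitals mark the bases of a primer that differ from its best site in the PYGL transcript.
PYGB forward: cgcacgcagcagcactactac
PYGB reverse: tggcTtcatcGcaggcattCtg
The forward primer matched PYGB and PYGL with 0 mismatches, and the reverse primer matched PYGB with 0 and PYGL with 3. Against PYGM the fewest mismatches were 1 and 4.

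PHKB (chromosome 16, 47495034 to 47735434, plus strand) encodes the beta subunit of phosphorylase kinase. It was at 80.0, 78.1 and 81.9 CPM in WT and 85.4, 90.8 and 85.7 CPM in METTL3-KO samples. The ranges did not overlap, but the log2 fold change of 0.13 (SE 0.0682, 95% confidence interval -0.02 to 0.28) did not pass the test (edgeR adjusted p = 0.204). Without the third sample of both groups it was 0.15 and passed (edgeR adjusted p = 0.0162), in a fit that called 44.2% of all genes, 22.6% lower and 21.5% higher. Across genes, deviations from the group means correlated at -0.586 to -0.390 between the WT and METTL3-KO samples left in that fit. A shift between these samples therefore cannot be told apart from genotype wherever that fit is quoted, here and below. PHKB shares 194 exon bases with ITFG1 on the opposite strand, 1.63% of its own exon bases. ITFG1 was lower in METTL3-KO cells, with a log2 fold change of -0.52 (SE 0.0870, edgeR adjusted p = 0.00109).

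Of the members that supply glucose units to glycogen, UGP2 passed the test and PGM1 did not, with estimates of the same sign and confidence intervals that overlap. UGP2 (chromosome 2, 64068086 to 64118696, plus strand), UDP-glucose pyrophosphorylase, had 3008, 2680 and 2106 counts in WT and 4024, 2969 and 3452 in METTL3-KO samples. As CPM it was at 109.6, 119 and 98.7 in WT and 133, 135 and 147 in METTL3-KO samples, and the lowest METTL3-KO sample lay above the highest WT sample. UGP2 rose by 0.35 on the log2 scale (SE 0.0822, 95% confidence interval 0.16 to 0.53, edgeR adjusted p = 0.00929). Without the third sample of both groups the rise was 0.24 (edgeR adjusted p = 0.000119). PGM1 (chromosome 1, 64059082 to 64125916, plus strand), phosphoglucomutase 1, was at 41.0, 37.4 and 31.1 CPM in WT and 37.9, 41.6 and 42.9 in METTL3-KO samples. The groups overlapped, with a log2 fold change of 0.16 (SE 0.104, 95% confidence interval -0.07 to 0.39, edgeR adjusted p = 0.296). The third WT sample, which stood apart from the rest of its group across the transcriptome, held the lowest value of both genes. The third METTL3-KO sample held the highest value of both. Without the third sample of both groups, PGM1 had a log2 fold change of 0.01, in the fit that cannot separate genotype from the shift between samples described for PHKB. PGM1 shares 197 exon bases, 4.83% of its own, with ITGB3BP on the opposite strand, which had a log2 fold change of -0.20 that did not pass (SE 0.0861, edgeR adjusted p = 0.115).

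Of the genes that assemble the polymer, GYG1 passed the test and GYS1 and GBE1 did not. GYG1 (chromosome 3, 148709195 to 148749562, plus strand), glycogenin 1, had 1207, 997 and 879 counts in WT and 1591, 1121 and 1256 in METTL3-KO samples. It was at 43.96, 44.1 and 41.2 CPM in WT and 52.8, 51.0 and 53.4 CPM in METTL3-KO samples. Replicates were close and the groups well apart. GYG1 rose by 0.28 on the log2 scale (SE 0.0720, 95% confidence interval 0.12 to 0.44, edgeR adjusted p = 0.0135). Its adjusted p was 0.0542 without METTL3-KO replicate 1. GYG1 overlaps HLTF, a helicase gene on the opposite strand, over 1649 exon bases (21.8% of the exon bases of GYG1). HLTF had 0 to 6 counts in each sample, against 879 to 1591 for GYG1.

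GYS1 (chromosome 19, 49471387 to 49496567, minus strand), the glycogen synthase of tissues other than liver, was at 109.4, 116 and 113 CPM in WT and 126, 124 and 130.2 CPM in METTL3-KO samples. All METTL3-KO samples lay above all WT samples. The difference was small, with a log2 fold change of 0.17 (SE 0.0662, 95% confidence interval 0.03 to 0.32), and did not pass after adjustment over all genes (edgeR adjusted p = 0.0778). Without the third WT sample it did (edgeR adjusted p = 0.0396), as it did without the third sample of both groups (0.00685). Set against the summed phosphorylases of the same sample, each per length, GYS1 stood at 6.71%, 7.58% and 6.87% of their level in WT and at 12.9%, 12.6% and 13.04% in METTL3-KO samples. This ratio combines a denominator dominated by PYGB with a GYS1 level that did not pass its own test, and it was not tested. GBE1 (chromosome 3, 81538854 to 81810796, minus strand), the branching enzyme, had 117 to 168 counts per sample. It was at 6.12, 5.18 and 5.49 CPM in WT and 5.08, 6.92 and 5.53 CPM in METTL3-KO samples, overlapping throughout, with a log2 fold change of 0.05 (SE 0.144, 95% confidence interval -0.27 to 0.36, edgeR adjusted p = 0.841).

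Levels of different genes were compared per kilobase of annotated exon. In WT cells PYGB stood highest at 366 ± 14.2 CPM per kilobase, followed by GYS1 at 26.6 ± 0.806, UGP2 at 16.0 ± 1.46, PYGL at 11.8 ± 0.692, PGM1 at 8.95 ± 1.23, PHKB at 6.72 ± 0.161, GYG1 at 5.71 ± 0.216, GBE1 at 1.20 ± 0.103 and PYGM at 0.0896 ± 0.0174 (mean ± SD, n = 3). The sample ranges of all neighbours in this order were apart in both groups. PYGB was 13.8 times as high as GYS1 in WT and 7.40 times in METTL3-KO cells, where it stood at 222 ± 1.53 CPM per kilobase. The order was the same in METTL3-KO cells. The places of PGM1, PHKB and GYG1, whose levels lie close together, depended on the length used. PHKB came before PGM1 with the longest transcript, their ranges then overlapping, and GYG1 came before PHKB when bases shared with other genes were left out. From GYG1 down to GBE1 the mean dropped 4.75-fold in WT and 5.53-fold in METTL3-KO cells, so mRNA for the branching enzyme was scarce beside that for the primer and the synthase.

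**Figure D2:**
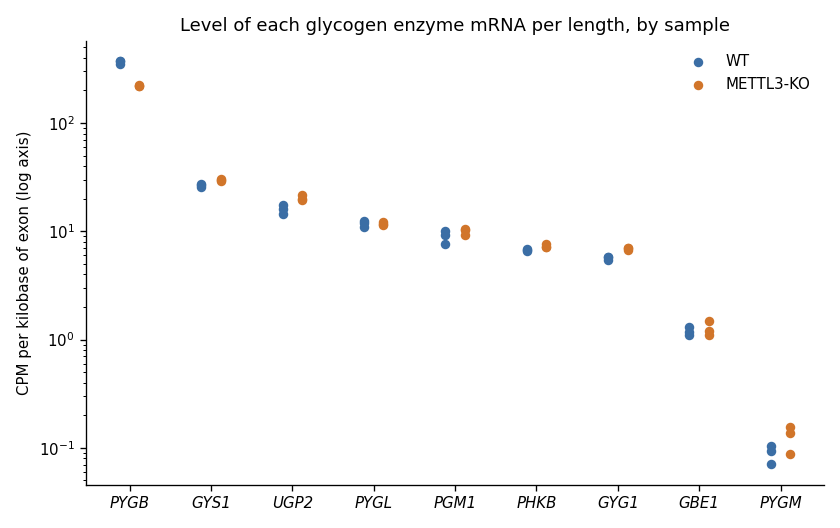
Level of the 9 genes per length (CPM per kilobase of annotated exon, log axis) in each WT (blue) and METTL3-KO (orange) sample, ordered by the WT mean. PYGB lies above every other member in both groups, by 13.8 times over GYS1 in WT and 7.40 times in METTL3-KO cells, and PYGM lies lowest.

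Beyond these 9 genes, a list of 34 further genes of glycogen metabolism and UDP-glucose use was examined, of which 33 had values and 30 reached the count minimum. Of these 30, 6 were lower, 7 were higher and 17 did not pass (43.3% called, beside 26.8% of all genes tested). Their median log2 fold change was 0.07. The isoenzyme partners of the members were scarce: the liver synthase GYS2 had 0 to 2 counts per sample and was not tested, and the second glycogenin GYG2 was at 1.80 ± 0.357 CPM in WT against 1.31 ± 0.0503 in METTL3-KO cells (n = 3 each, mean ± SD), with a log2 fold change of -0.46 that did not pass (edgeR adjusted p = 0.138) and -0.61 without the third sample of both groups (edgeR adjusted p = 0.0496).

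Of the 5 other breakdown genes, 1 was lower and 4 did not pass. PHKA2, a regulatory alpha subunit of phosphorylase kinase, fell by 0.34 on the log2 scale (SE 0.0919, edgeR adjusted p = 0.0186), from 51.2, 53.4 and 61.6 CPM in WT to 45.4, 46.0 and 40.1 CPM in METTL3-KO samples. Its adjusted p was 0.0515 without METTL3-KO replicate 1 and 0.0725 without METTL3-KO replicate 3. The other alpha subunit gene, PHKA1, was at 20.6, 21.9 and 23.02 CPM in WT and 24.9, 23.2 and 24.5 in METTL3-KO samples (log2 fold change 0.15, edgeR adjusted p = 0.208). The 2 alpha subunit genes thus had estimates of opposite sign, and their confidence intervals, -0.54 to -0.13 and -0.03 to 0.33, did not overlap. The catalytic subunit gene PHKG2 was at 31.3 ± 3.38 CPM in WT against 28.4 ± 2.39 in METTL3-KO cells (log2 fold change -0.14, edgeR adjusted p = 0.327), and PHKG1, its muscle counterpart, at 1.19 ± 0.610 and 1.33 ± 0.170 CPM. PHKG2 passed without the third WT sample (log2 fold change -0.23, edgeR adjusted p = 0.0399) and without the third sample of both groups (-0.30, edgeR adjusted p = 0.000389), and PHKA1 passed in the latter case (0.19, edgeR adjusted p = 0.0434).

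The regulators moved in both directions within each group. Among 5 tested glycogen-targeting subunits of protein phosphatase 1, which bring the phosphatase to glycogen, PPP1R3B was higher by 0.31 (SE 0.0960, edgeR adjusted p = 0.0339) and PPP1R3E lower, with a log2 fold change of -0.42 (SE 0.124, edgeR adjusted p = 0.0258). With samples left out, PPP1R3B passed without the third WT sample and without the third sample of both groups, and had an edgeR adjusted p of 0.0681 to 0.111 without any other single sample. PPP1R3E did not pass without WT replicate 1 (0.0771), WT replicate 2 (0.114), METTL3-KO replicate 1 (0.0968) or METTL3-KO replicate 3 (0.0924). PPP1R3A and PPP1R3C had no counts in any sample, which allows up to 3 counts, or 0.141 CPM in the shallowest library. Of 7 kinases, phosphatases and their partners, 3 were higher and 1 lower. GSK3B, a kinase that inhibits glycogen synthase, rose by 0.39 on the log2 scale (SE 0.1001, edgeR adjusted p = 0.0143), with an adjusted p of 0.0566 without WT replicate 1, 0.0502 without WT replicate 2 and 0.0693 without METTL3-KO replicate 1. The phosphatase catalytic subunit PPP1CC rose by 0.34 (SE 0.0680, edgeR adjusted p = 0.00365), while PPP1CA and PPP1CB had log2 fold changes of 0.04 and 0.00 that did not pass. PPP1CA was at 283.5, 280.5 and 238.1 CPM in WT and 261.4, 253.1 and 311.4 CPM in METTL3-KO samples. Without the third sample of both groups its log2 fold change was -0.13 (edgeR adjusted p = 0.00520). That fit cannot separate genotype from the shift between samples described for PHKB, and the 2 groups overlapped with all samples. Laforin (EPM2A), a glycogen phosphatase, and malin (NHLRC1), its ubiquitin ligase partner, went opposite ways at low levels. EPM2A fell by 0.65 on the log2 scale (SE 0.197, edgeR adjusted p = 0.0309), from 2.58 ± 0.231 to 1.63 ± 0.344 CPM, and NHLRC1 rose by 0.70 (SE 0.194, edgeR adjusted p = 0.0201), from 1.45 ± 0.255 to 2.33 ± 0.162 CPM (n = 3 each, mean ± SD). Neither call held in every fit with a sample left out: EPM2A did not pass without WT replicates 1 (0.116) or 2 (0.0686) or METTL3-KO replicates 2 (0.117) or 3 (0.0929), and NHLRC1 did not pass without WT replicates 1 (0.0727) or 2 (0.0715) or METTL3-KO replicate 1 (0.0855; all edgeR adjusted p). With all samples, DESeq2 gave an adjusted p of 0.0734 for EPM2A and 0.0566 for NHLRC1.

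Of 7 other users of UDP-glucose, 3 were lower, 1 was higher and 3 did not pass. UGCG, which makes glucosylceramide, fell by 0.55 on the log2 scale (SE 0.0876, edgeR adjusted p = 0.000805), from 29.98, 28.05 and 31.7 CPM in WT to 19.5, 21.97 and 19.9 in METTL3-KO samples. GALT, which exchanges UDP-glucose against galactose 1-phosphate, fell by 0.46 (SE 0.0908, edgeR adjusted p = 0.00317), and UGDH, which oxidises UDP-glucose to UDP-glucuronate, by 0.27 (SE 0.0762, edgeR adjusted p = 0.0207). ALG5, which loads glucose onto dolichol for protein glycosylation, was higher by 0.28 (SE 0.0894, edgeR adjusted p = 0.0366). UGDH did not pass without WT replicate 1 (edgeR adjusted p = 0.0640), METTL3-KO replicate 2 (0.107) or METTL3-KO replicate 3 (0.0597), and ALG5 did not without WT replicates 1 (0.0550) or 2 (0.0538) or METTL3-KO replicates 1 (0.0965) or 3 (0.120). With samples corrected for transcript length and GC content ALG5 had a log2 fold change of 0.27 and did not pass (edgeR adjusted p = 0.0715). The glycoprotein glucosyltransferase gene UGGT1 had a log2 fold change of 0.17 that did not pass (edgeR adjusted p = 0.251), and 0.34 without the third sample of both groups (edgeR adjusted p = 3.59e-07) or 0.30 without that of WT alone (edgeR adjusted p = 0.00356). Among the phosphoglucomutase relatives, PGM2, which also acts on glucose 1-phosphate, was at 55.4 ± 3.37 CPM in WT against 54.2 ± 1.70 in METTL3-KO cells (log2 fold change -0.03, edgeR adjusted p = 0.787). PGM3, which serves UDP-N-acetylglucosamine synthesis, rose by 0.45 (SE 0.0705, edgeR adjusted p = 0.000706), and PGM5, a relative without the mutase activity that sits at cell adhesions, rose by 1.87 (SE 0.110, edgeR adjusted p = 1.67e-06), from 3.49 ± 0.224 to 12.7 ± 0.180 CPM. PGM2L1, which makes glucose 1,6-bisphosphate, was at 13.7 ± 2.13 CPM in WT against 17.2 ± 1.10 in METTL3-KO samples (log2 fold change 0.34, edgeR adjusted p = 0.0565), and passed without the third WT sample (0.45, edgeR adjusted p = 0.00320) and with samples corrected for transcript length and GC content (0.33, edgeR adjusted p = 0.00924). With all samples, the genes of this family that passed the test, PGM3 and PGM5, have other known roles than converting glucose 1-phosphate. Differences between the family's genes were not tested. The estimate of PGM1 had the same sign, and its confidence interval overlapped that of PGM3 but not that of PGM5. The single lysosomal gene with values, the acid glucosidase GAA, had a log2 fold change of -0.12 (edgeR adjusted p = 0.509), and -0.31 without the third sample of both groups (edgeR adjusted p = 0.00718).

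**Figure D3:**
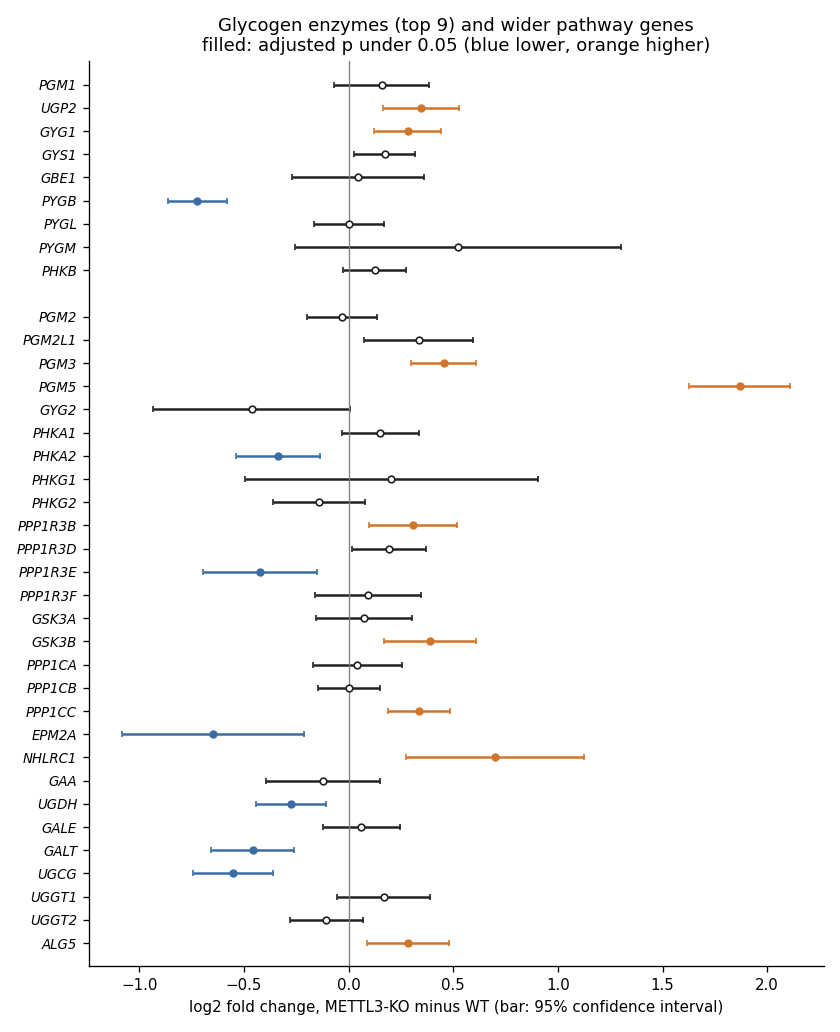
Log2 fold change of METTL3-KO minus WT with its 95% confidence interval (edgeR) for the 9 glycogen genes (top block) and the tested genes of the wider list (bottom block; PPP1R3G, with at most 5 counts in a sample, and 1 gene that did not pass are left out). Filled points passed an adjusted p of 0.05 (blue lower, orange higher): in the top block only PYGB, UGP2 and GYG1, at -0.72, 0.35 and 0.28, and in the bottom block 6 lower and 7 higher genes, with PGM5 farthest out at 1.87.

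ABHD12, a lipase gene, overlaps the PYGB gene on the opposite strand without sharing exon bases with it. It was at 130.0 ± 11.04 CPM in WT against 185 ± 14.2 CPM in METTL3-KO cells (n = 3 each, mean ± SD), a log2 fold change of 0.51 (SE 0.0848, edgeR adjusted p = 0.00111). The overlapping genes therefore differed between the genotypes in opposite directions.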

How the data were processed

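RNA-seq of 3 WT and 3 METTL3-KO samples of HCT116 cells was used, grouped by the submitters' labels. The deposited values are raw read-pair counts for each gene symbol, which the authors made by mapping to hg19 with TopHat v2.0.11, an Ensembl GRCh37 transcript index and htseq-count (union mode). The strand setting is not given in the sources used here. Unassigned pairs (touching exons of several genes, aligned to several places or in no gene) were 28.2% to 30.7% of each file and stayed out of library sizes. The files' own names call the groups NC and SiM3 and number the WT samples otherwise than the labels, whose groups and numbers were used.

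As the study did, genes were dropped if neither condition reached 5 counts in total (34186 of 56638). METTL3-KO was compared with WT by edgeR's two-sided quasi-likelihood test (edgeR 4.0.16, R 4.3.3; TMM; group as the only term), and p-values were adjusted by Benjamini-Hochberg over the 22452 genes tested. SE was the log2 fold change over the square root of F. Positions, lengths and sequences came from GENCODE on GRCh37, where 35770 symbols matched. The genes named were the members, METTL3, partner isoenzymes and subunits, listed pathway genes past the threshold (12 at most) and genes overlapping a member; other listed genes were picked after their values were seen. Members and lists were chosen with earlier results of these data known. 1 listed gene is counted but not reported here.

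Alternatives were DESeq2 (1.42.0), RLE normalization, other filters, a replicate block, samples left out, other gene lengths and a correction for transcript length and GC content. Deviations of same-numbered samples from their group means correlated at -0.586, -0.390 and -0.784 across genes, so the label numbers do not pair them. Pairing by the numbers in the files' own names, or by shared processing of differently numbered samples, was not tested. The third samples of both groups thus deviated in opposite directions. WT sample 3 correlated at 0.657 and 0.505 with METTL3-KO samples 1 and 2. METTL3-KO sample 3 correlated at 0.719 and 0.632 with WT samples 1 and 2. Both count tests were tested on simulated counts.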

Additional observations from a re-analysis of the deposited data

How the results depend on the processing

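PYGB was lower with an adjusted p under 0.05 in all 14 alternative fits (log2 fold change -0.76 to -0.70, highest adjusted p 0.00564), UGP2 was higher in 13 and GYG1 in 11. With the replicate number as a block, edgeR called PYGB lower and 0 members higher (2 at an unadjusted p under 0.05), with adjusted p of 0.0752 for UGP2 and 0.0955 for GYG1; of the wider list it called 2 lower and 2 higher, and of all genes 1582 lower and 1694 higher, against 3007 and 3012 without it. With the block and the correction for length and GC content together, 1 member (UGP2) was higher, beside 2719 of all genes lower and 2866 higher. Leaving out samples gave 1 to 4 members higher (4 without replicate 3 of both groups: UGP2, GYG1, GYS1 and PHKB, and 1 without METTL3-KO replicate 1), 2 to 10 wider genes lower (10 without replicate 3 of both groups, 2 without METTL3-KO replicate 3), 3 to 10 higher, and 1975 to 4810 of all genes lower and 2213 to 4573 higher. GYS1 also passed under filterByExpr (edgeR adjusted p = 0.0394) and with the length and GC correction (0.0436). The log2 fold change of PPP1CA, 0.04 with all samples, ran from -0.13 without replicate 3 of both groups to 0.10 without METTL3-KO replicate 2. The log2 PYGL to PYGB ratio differed by 0.63 to 0.77 with samples left out. Within the replicate numbers, which do not pair the samples, it differed by 0.72 (exact permutation test, p = 0.25). That test cannot go lower with 3 pairs. In the order of levels per length, 7 of 9 places stayed with the longest transcript and 7 with shared exon bases left out, the latter chosen after seeing the data. The causes of these shifts were not tested. Low depth limits what can be said of PYGM, at 7 to 22 counts per sample, and, in the wider list, of PPP1R3G at 0 to 5 and GYS2 at 0 to 2.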
